A study of Mus musculus with 9 samples.

Results

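The genes described here encode the microtubule motors that move cargo along axons. They comprise kinesin heavy chains (Kif and Kifc), kinesin light chains (Klc), the chains of cytoplasmic dynein (Dync and Dynl) and the subunits of dynactin (Dctn1 to Dctn6). Members were taken by gene symbol alone, whatever their level, which gave 68 of the 23997 gene symbols in the files. This set of genes as a topic was chosen with earlier results of these data known. Transcripts were measured in retinal ganglion cells (RGCs), the neurons whose axons form the optic nerve, from C57BL/6J mice whose anterior chamber had been injected with saline (Control) or with microbeads, which raise intraocular pressure (IOP). Eyes given microbeads were assigned to Mild IOP or Moderate IOP by the pressure measured over the 2 weeks after injection. Mice were injected at 6 weeks of age and RGCs were taken 2 weeks later, at the age of 8 weeks that the sample labels give. The labels name no transgene or deletion in any group. RGCs were isolated by immunopanning, in which unwanted cells are first bound to plates coated with a lectin or with antibodies and RGCs are then captured through the surface protein Thy1.2. RNA from the eyes of a group was combined in 1 pool and split for 3 libraries, so the 9 libraries represent 3 pools. Every error and p-value below therefore measures the spread between technical replicates of a pool, and variation between animals was not measured.

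Kinesins are ATP-driven motors, most of which walk toward the plus ends of microtubules, which in an axon point away from the cell body, so they carry vesicles, mitochondria and newly made proteins outward. Cytoplasmic dynein walks the other way and returns signalling endosomes, autophagosomes and damaged organelles to the soma, and it needs dynactin to become processive and to hold its cargo. The long axons of RGCs depend on both directions of traffic, and transport at the optic nerve head is known to be impaired when IOP is high.

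Expression was measured as FPKM (fragments per kilobase of transcript, relative to all mapped fragments), which divides by transcript length. Levels of different genes are set side by side on this scale, although differences between groups still followed transcript length, as described below. All levels below are FPKM after scaling between libraries. The sequencing depth derived from the confidence interval of each FPKM value ranged from 4590000 fragments in Moderate IOP replicate 1 to 8220000 in Control replicate 2. Mild IOP replicate 2 and Moderate IOP replicate 3 stood apart in composition. A single gene took 20.5% of all FPKM in the first and 9.1% in the second, against 1.9 to 3.6% in the other libraries.

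All 11 RGC markers examined were expressed, and the most abundant, Sncg, averaged 980 FPKM. Their summed level was 1469, 1557 and 1524 FPKM in the Control libraries, 1326, 1084 and 1333 FPKM in the Mild IOP libraries and 2471, 2311 and 2314 FPKM in the Moderate IOP libraries. The 3 groups did not overlap, and Moderate IOP was the highest. Sncg supplied most of the mean sum in each group, with 911 FPKM in Control, 641 with Mild IOP and 1389 with Moderate IOP. Nefl averaged 343 FPKM in Control and 374 with Mild IOP. Slc17a6 was also slightly higher in Mild IOP than in Control, and the remaining markers were lower. Markers of amacrine cells, the retinal interneurons that the panning was meant to remove, summed to 1419 ± 24.9 FPKM in Control libraries, 1543 ± 89.8 with Mild IOP and 1085 ± 78.0 with Moderate IOP (mean ± SD, n = 3 libraries in each group). None of the 9 amacrine markers was at 0. Rod markers, led by Sag, summed to 585 ± 56.3 FPKM in Control libraries, 393 ± 35.7 with Mild IOP and 391 ± 34.2 with Moderate IOP. Lens crystallins and other lens genes summed to 276 ± 38.9 FPKM in Control and to no more than 1.65 FPKM in any library from a microbead eye. Müller glia markers summed to between 475 and 584 FPKM in every library. Most of this sum was Dkk3, with 485 FPKM in Control, 509 with Mild IOP and 423 with Moderate IOP. The sum therefore says little of the other Müller glia markers. Bipolar cell markers summed to at most 99.1 FPKM, microglial markers to at most 35.2 FPKM, cone markers to at most 19.1 FPKM and astrocyte markers to at most 6.80 FPKM. Endothelial markers reached at most 3.18 FPKM in any library, with Cldn5, Cdh5 and Tie1 at 0 throughout. In bulk RNA of this kind, fewer cells of a type and less RNA per cell cannot be told apart.

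The motor genes together made up 2968 ± 41.5 FPKM in Control, and the largest share came from small, abundant dynein and dynactin subunits. Averaged over 9 libraries, the dynein light chains summed to 1068 FPKM, the dynactin subunits to 772 FPKM and the kinesin-1 chains to 672 FPKM. The heavy, intermediate and light intermediate chains of dynein-1, the motor of retrograde axonal transport, summed to 187 FPKM. The remaining families were lower, with kinesin-3 at 81.7 FPKM, kinesin-2 at 57.3 FPKM, kinesin-14 at 38.0 FPKM, kinesin-4 at 28.5 FPKM and dynein-2, the motor of cilia, at 19.5 FPKM. Dynlrb1, a roadblock-type light chain, was the most abundant member at 773 FPKM and ranked 72 among the 13043 genes tested. Klc1, a light chain that links kinesin-1 to its cargo, followed at 513 FPKM and rank 139. The kinesin-1 heavy chains were about an order of magnitude lower, at 45.1 FPKM for Kif5a and 40.9 FPKM for Kif5c. The dynein heavy chain Dync1h1, which holds the ATPase ring, averaged only 7.66 FPKM, less than any other dynein-1 chain.

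**Figure D1:**
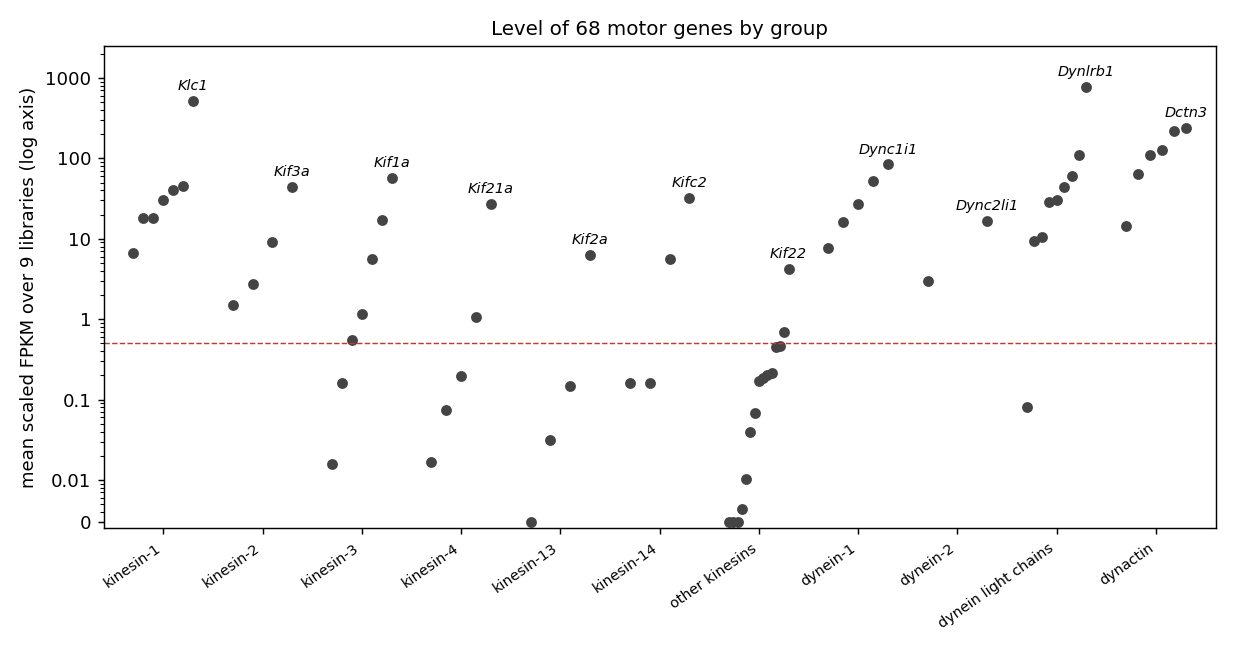
Each point is 1 of the 68 motor genes, with its mean scaled FPKM over 9 libraries on a log axis (genes at 0 are drawn at the tick marked 0) and its family on the horizontal axis. The most abundant gene of each family is named, and the dashed line at 0.5 FPKM separates the 44 genes that entered the tests from the 24 that did not.

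Of the 68 genes, 44 had a mean of at least 0.5 FPKM and entered the tests, and 24 did not. All 7 kinesin-1 chains, all 4 kinesin-2 chains, all 5 dynein-1 chains, both dynein-2 chains and all 6 dynactin subunits were tested. So were 5 of 7 kinesin-3 genes, 2 of 5 kinesin-4 genes, 1 of 4 kinesin-13 genes, 2 of 4 kinesin-14 genes and 8 of 9 dynein light chains. Among the 15 kinesins of other families, only Kif22 and Kif26b were tested. The genes left out included motors of the mitotic spindle such as Kif11, Kif15, Kif18a, Kif20a and Kif2c. Of 13 spindle kinesins only Kif22, a chromosome-binding motor, was tested, at 4.19 FPKM. Kif2b, Kif12, Kif23 and the pseudogene Kif4-ps were listed at 0 in all 9 libraries. Dynlrb2, the close relative of Dynlrb1 known from motile cilia, was above 0 in a single library, Mild IOP replicate 3, at 0.728 FPKM. Markers of cycling cells summed to at most 2.66 FPKM in any library, with Top2a at 0 in all of them. The untested genes besides those named are Kif14, Kif18b, Kif19a, Kif1c, Kif20b, Kif24, Kif26a, Kif27, Kif4, Kif6, Kif7, Kif9, Kifc1 and Kifc5b.

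The first comparison asked whether motor transcripts differed between Mild IOP and Control. None of the 44 tested motor genes passed the FDR of 0.1 in limma in either direction, against 0.399% of all 13043 genes tested (0.00767% higher and 0.391% lower). At an unadjusted p below 0.05 there were 5 motor genes (11.4%), against 10.2% of all genes. The median log2 fold-change of the motor genes was −0.03, with 20 genes above 0 and 24 below, and that of all genes was 0.01. The sign of the motor gene median turned with no scaling (0.016), with upper-quartile scaling (0.02), without Control replicate 3 (0.01) and without Mild IOP replicate 3 (0.028). The changes of scaling also moved the median of all genes, to 0.049 and 0.053, so these turns are not particular to motor genes. The 3 Mild IOP libraries lay above all Control libraries for 3 motor genes (6.82%, against 7.94% of all genes) and below them for 5 (11.4%, against 9.13%). These shares were close to those of the whole transcriptome.

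The 5 genes with lower, non-overlapping values in Mild IOP were Dynll1, Dynlrb1, Dctn3, Kif17 and Klc3. Dynll1, a light chain that dimerises and binds many partners besides dynein, had a log2 fold-change of −0.61 (SE 0.12) and an FDR of 0.103, just outside the limit. Dynlrb1 had −0.54 (95% interval −0.84 to −0.23) and Dctn3 had −0.49 (−0.77 to −0.20), each with an FDR of 0.198. With the trend with transcript length removed, an alternative chosen after the data were seen, Dynlrb1 had −0.13 (FDR 0.768) and Dynll1 −0.56 (FDR 0.137). Kif17, the kinesin-2 motor of dendrites and cilia, measured 2.17, 2.57 and 2.36 FPKM in Control libraries and 1.03, 1.01 and 0.582 with Mild IOP. Its log2 fold-change was −0.85 (−1.48 to −0.22) with an FDR of 0.301, at a level where few fragments stand behind each value. Without Mild IOP replicate 3, Dynll1 and Dynlrb1 passed, with FDRs of 0.0685 and 0.0648.

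Higher, non-overlapping values in Mild IOP were seen for Kif2a, Dynlt3 and Kifc2. Kif2a, a kinesin-13 that shortens microtubules instead of walking along them, measured 2.65, 3.18 and 5.32 FPKM in Control libraries and 6.39, 5.87 and 7.52 with Mild IOP. The log2 fold-change was 0.72 (95% interval 0.07 to 1.38), and the FDR of 0.423 left it outside the call. Dynlt3, a Tctex-type light chain, had 0.35 (−0.02 to 0.72, FDR 0.525), and Kifc2, a neuronal kinesin-14, had 0.32 (−0.03 to 0.67, FDR 0.552).

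The comparison of Moderate IOP with Control again gave no motor gene at an FDR below 0.1 in limma, against 1.84% of all genes tested (0.951% higher and 0.889% lower). At an unadjusted p below 0.05 there were 9 motor genes (20.5%), against 15.3% of all genes. Values in Moderate IOP lay above all Control libraries for 10 motor genes (22.7%, against 9.95% of all genes) and below them for 5 (11.4%, against 9.48%). The median log2 fold-change was 0.07, with 28 genes above 0 and 16 below, beside a median below 0.01 for all genes. Both comparisons used the same Control libraries, so their values are not independent of each other.

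The 10 genes with higher, non-overlapping values were Kif1a, Kif21a, Klc2, Dync1h1, Dynlrb1, Dynlt1a, Dynlt1b, Dynlt1c, Dctn3 and Dctn6. Kif1a, a fast kinesin-3 that carries synaptic vesicle precursors, had a log2 fold-change of 0.38 (95% interval 0.13 to 0.64, FDR 0.163). Dync1h1 measured 5.61, 6.87 and 7.48 FPKM in Control libraries and 9.53, 8.84 and 9.09 with Moderate IOP, a log2 fold-change of 0.42 (0.01 to 0.82, FDR 0.32). Dctn6 had 0.38 (0.05 to 0.71, FDR 0.27). The light chain Dynlt1b had 0.59 (0.09 to 1.08, FDR 0.251), or 0.34 (FDR 0.459) with the length trend removed, and its near-copy Dynlt1c had 0.71 (−0.02 to 1.44, FDR 0.341).

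Lower, non-overlapping values in Moderate IOP than in Control were found for Kif16b, Klc4, Kif3b, Kif3c and Kif17. Kif16b, a kinesin-3 that moves early endosomes, measured 1.50, 1.45 and 2.15 FPKM in Control libraries, 1.05, 1.55 and 1.54 with Mild IOP and 0.394, 0.503 and 0.330 with Moderate IOP. All 3 Moderate IOP libraries lay below the other 6, and Control and Mild IOP overlapped. Few fragments stood behind these values, 11, 25 and 11 in the Moderate IOP libraries. Their mean of 0.409 FPKM was below the filter of 0.5, which Kif16b passed through the other groups. The log2 fold-change against Control was −0.93 (SE 0.26, FDR 0.136), and the call depended on the filter, since with no filter on low values the FDR was 0.0677. Klc4, a kinesin-1 light chain, measured 41.2, 34.3 and 34.1 FPKM in Control libraries and 21.8, 17.4 and 33.7 with Moderate IOP. The third Moderate IOP library was nearly as high as Control, the log2 fold-change was −0.62 (−1.10 to −0.14, FDR 0.216), and without that library the FDR was 0.084.

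Of the 4 kinesin-2 genes, 3 lay below Control in every Moderate IOP library, namely Kif3b, Kif3c and Kif17, beside 9.48% of all genes, and none of the 3 passed the FDR limit. Kif3a, the subunit that pairs with either Kif3b or Kif3c to form a heterodimeric motor, was the exception. It was the most abundant of the family and measured 36.6, 47.6 and 44.2 FPKM in Control libraries, 40.6, 49.5 and 41.7 with Mild IOP and 46.4, 44.1 and 44.9 with Moderate IOP. These ranges overlapped throughout, with a log2 fold-change of 0.08 (95% interval −0.23 to 0.39) for Moderate IOP against Control. Kif3c, the neuronal partner, measured 11.6, 8.71 and 11.2 FPKM in Control libraries, 9.48, 12.1 and 8.91 with Mild IOP and 6.81, 5.74 and 7.64 with Moderate IOP. Its log2 fold-change was −0.57 (−1.01 to −0.13, FDR 0.215) against Control and −0.53 (−0.97 to −0.09, FDR 0.155) against Mild IOP. Its locus overlaps another gene, 1110002L01Rik, over 2612 nt, and reads of the pair may not be separable. Kif3b, the ubiquitous partner, had −0.58 (−1.24 to 0.07, FDR 0.38) against Control and averaged 2.76 FPKM over 9 libraries.

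Kif2a had the largest positive log2 fold-change of any motor gene against Control, 1.01 (95% interval 0.36 to 1.66), with an FDR of 0.154. The Moderate IOP libraries measured 10.9, 9.89 and 5.11 FPKM, of which the third lay within the Control range. Without Moderate IOP replicate 3, Kif2a passed the FDR limit.

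**Figure D2:**
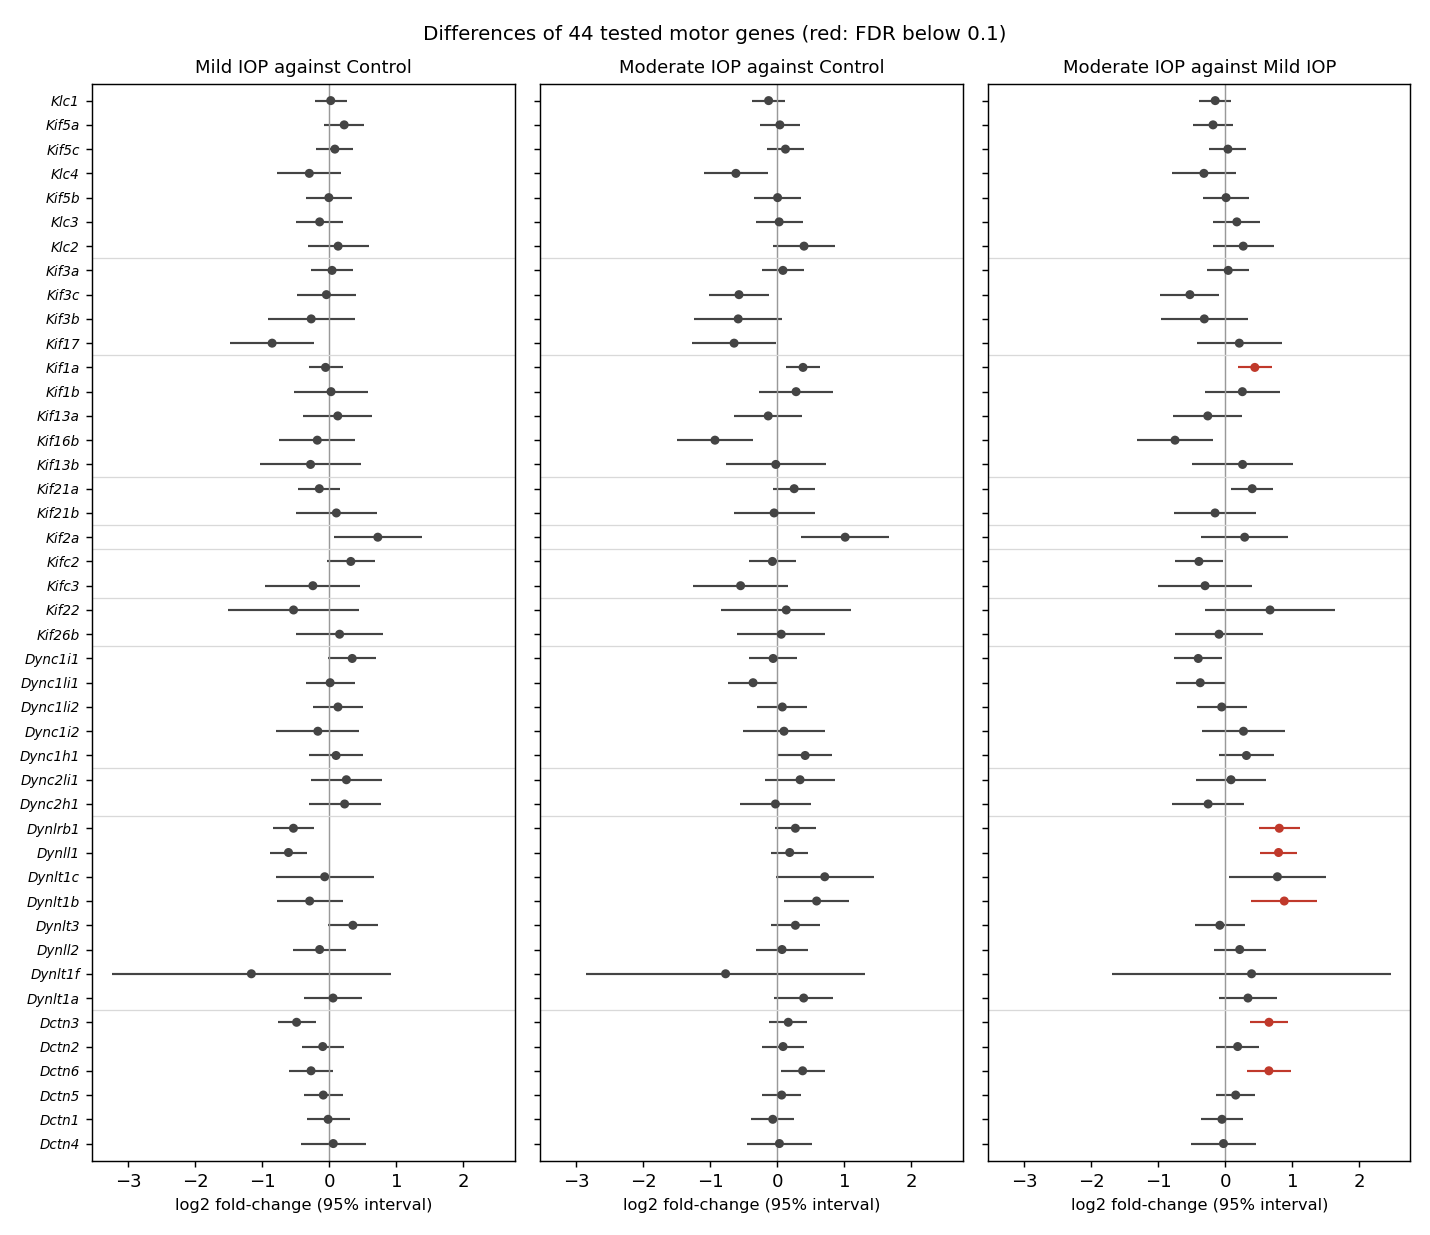
Points are log2 fold-changes of the 44 tested motor genes from limma with 95% intervals, ordered by family (grey lines) and, within a family, by level, for the 3 comparisons of 9 libraries. Red marks an FDR below 0.1, which 6 genes reached in Moderate IOP against Mild IOP and none in the comparisons with Control.

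In the main fit, motor genes passed the FDR limit between the 2 IOP groups and not in the comparisons with Control. Some passed against Control under other settings, as given above and in the closing section. In Moderate IOP against Mild IOP, 6 of 44 motor genes rose (13.6%, against 7.03% of all genes tested), and none fell (against 3.12%). The 6 genes were the dynein light chains Dynll1, Dynlrb1 and Dynlt1b, the dynactin subunits Dctn3 and Dctn6, and the kinesin Kif1a. With the trend with transcript length removed, Dynll1 and Kif1a were still called, Dynlrb1, Dctn3, Dctn6 and Dynlt1b were not, and Kif21a was called in addition, which made 3, beside 342 of all 13043 genes higher. At an unadjusted p below 0.05 there were 13 motor genes (29.5%, against 21.8%). Values in Moderate IOP lay above all Mild IOP libraries for 9 motor genes (20.5%, against 14.5%) and below them for 7 (15.9%, against 13%). The median log2 fold-change was 0.12, with 26 genes above 0 and 18 below, against −0.02 for all genes. With no scaling between libraries the motor gene median was 0.04, beside −0.09 for all genes. When each library was left out in turn, the motor gene median was 0.05 to 0.12. Among all genes, the calls divided into 917 higher and 407 lower, and with no scaling between libraries into 731 and 662. With no scaling the same 6 motor genes rose, and Kif16b was called lower.

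The start of a gene is where the factors that set its transcription assemble, and promoter windows could be matched for 4 of the 6 genes that rose together. The 100 bases upstream of the start are shown for 3 of them, since these hold the short motifs searched, and the matches are in capitals. Sequences are from RefSeq on GRCm38.p6 and read 5′ to 3′ on the strand of the gene, which is chr5:115300991-115301090 (minus) for Dynll1, chr2:155236433-155236532 (plus) for Dynlrb1 and chr4:41723164-41723263 (minus) for Dctn3.
Dynll1: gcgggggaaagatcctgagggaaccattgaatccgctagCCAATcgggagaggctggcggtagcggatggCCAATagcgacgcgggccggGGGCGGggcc
Dynlrb1: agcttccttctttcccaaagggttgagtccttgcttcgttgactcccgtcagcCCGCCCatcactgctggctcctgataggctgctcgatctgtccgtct
Dctn3: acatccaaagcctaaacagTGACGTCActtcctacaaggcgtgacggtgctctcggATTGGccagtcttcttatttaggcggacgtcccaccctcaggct
Dynll1 held 2 CCAAT boxes and 1 GC box (GGGCGG, or CCGCCC on the other strand). Dynlrb1 held 1 GC box, and Dctn3 held 1 CCAAT box (as ATTGG) and 1 cAMP response element (TGACGTCA, a motif added after this sequence was seen). The window of Kif1a had a GC content of 75% and held none of these, nor a TATA box (TATAAA) or an E-box (CACGTG). Both strands were searched, and no match shown overlaps another.

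Promoter windows of all motor genes that could be matched (59 windows of 52 symbols) held a GC box in 45.8% and a CCAAT box in 35.6%, against 24.7% and 18.9% of all 32851 windows. A TATA box was found in 0 of the 59, against 5.6% of all windows, and the E-box in 1.7% against 3.2%. The cAMP response element was found in 6.8% against 1.2%. That motif was added after the Dctn3 window was seen, which is among the windows counted, so its share is partly set by that choice. The median GC content was 63% in the motor gene windows and 55% in all windows. A match is a description of the letters and not evidence of binding.

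Dynll1 (chromosome 5, 115297110 to 115300990, mm10) measured 111, 136 and 114 FPKM in Control libraries, 79.8, 69.5 and 85.9 with Mild IOP and 133, 135 and 140.0 with Moderate IOP. Every Mild IOP library lay below every other library, and Control and Moderate IOP overlapped. The log2 fold-change of Moderate IOP against Mild IOP was 0.79 (SE 0.12, FDR 0.00811 in limma), a ratio of means of 1.74. Against Control the difference was 0.18 (95% interval −0.09 to 0.46, FDR 0.516).

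Dynlrb1 (chromosome 2, 155236533 to 155250277) measured 771, 780 and 845 FPKM in Control libraries, 575, 439 and 660 with Mild IOP and 959, 924 and 1004.5 with Moderate IOP. The 3 groups did not overlap, with Mild IOP lowest and Moderate IOP highest. Moderate IOP exceeded Mild IOP by a log2 fold-change of 0.81 (SE 0.14, FDR 0.0109), a ratio of 1.73. Against Control the difference was 0.27 (−0.04 to 0.58, FDR 0.393).

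Dctn3 (chromosome 4, 41714798 to 41723163), the p24 subunit in the shoulder of dynactin, had the same order of groups. It measured 227, 266 and 263 FPKM in Control libraries, 208, 159 and 173 with Mild IOP and 308, 272 and 268 with Moderate IOP. Groups again occupied separate ranges, but the highest Control library and the lowest Moderate IOP library nearly met. Its log2 fold-change of Moderate IOP against Mild IOP was 0.65 (SE 0.13, FDR 0.0176), a ratio of 1.57. This order with no overlap, Mild IOP below Control below Moderate IOP, was found for 172 of all tested genes (1.32%), and among the motor genes for Dynlrb1 and Dctn3 alone. No motor gene had separate ranges in the order Control, Mild IOP, Moderate IOP (0.238% of all genes), or from low to high Moderate IOP, Mild IOP, Control (0.307%) or Moderate IOP, Control, Mild IOP (0.498%).

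Dctn6 (chromosome 8, 34090423 to 34108511), the p27 subunit at the pointed end of the dynactin filament, measured 114, 129 and 120.5 FPKM in Control libraries, 123, 80.8 and 101 with Mild IOP and 145, 162 and 166 with Moderate IOP. Moderate IOP was above both other groups in every library, and Mild IOP overlapped Control. The log2 fold-change against Mild IOP was 0.65 (SE 0.15, FDR 0.0308), a ratio of 1.56. The partner p25 subunit, Dctn5, was not called, with 0.16 (95% interval −0.13 to 0.44).

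Dynlt1b (chromosome 17, 6430112 to 6436295), a Tctex-1 light chain, measured 39.5, 47.4 and 30.7 FPKM in Control libraries, 37.5, 23.7 and 34.4 with Mild IOP and 54.7, 48.8 and 74.7 with Moderate IOP. Moderate IOP was above all other libraries. The log2 fold-change against Mild IOP was 0.88 (SE 0.22, FDR 0.0445), a ratio of 1.86, and it missed the limit without Mild IOP replicate 2 (FDR 0.17) or Moderate IOP replicate 3 (FDR 0.123). Dynlt1b is 1 of 4 near-identical mouse copies, so the division of fragments among Dynlt1a, Dynlt1b, Dynlt1c and Dynlt1f is uncertain. Their sum was 112, 124 and 97.4 FPKM in Control libraries, 109, 60.7 and 125 with Mild IOP and 165, 147 and 179 with Moderate IOP. The summed level in Moderate IOP was above all 6 other libraries, and Control and Mild IOP overlapped. Dynlt1f, whose 2 loci overlap those of Dynlt1c, ranged from 0.520 to 26.6 FPKM between libraries of Moderate IOP alone.

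Kif1a (chromosome 1, 93015456 to 93101865) measured 50.2, 56.5 and 50.7 FPKM in Control libraries, 49.3, 51.4 and 50.3 with Mild IOP and 68.9, 64.7 and 72.5 with Moderate IOP. Control and Mild IOP overlapped, and Moderate IOP lay above both. The log2 fold-change against Mild IOP was 0.44 (SE 0.12, FDR 0.0498), a ratio of 1.37, the smallest of the 6. It was called in 5 of 9 fits that left out 1 library, and missed the limit without Mild IOP replicate 1 (FDR 0.15), Mild IOP replicate 2 (FDR 0.127), Moderate IOP replicate 1 (FDR 0.107) or Moderate IOP replicate 3 (FDR 0.115).

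**Figure D3:**
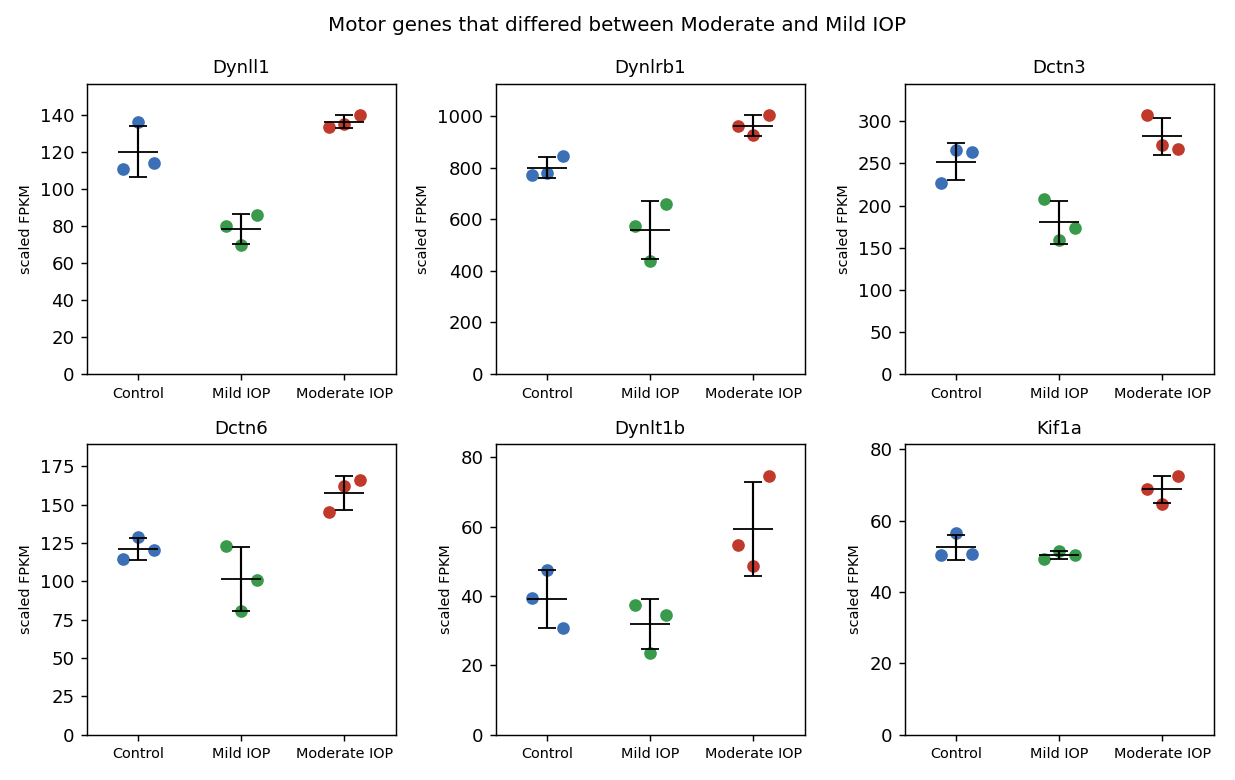
Points are the scaled FPKM of the 3 libraries of each group for the 6 motor genes that rose in Moderate IOP against Mild IOP, with the mean and SD as lines. Mild IOP is below Control without overlap for Dynll1, Dynlrb1 and Dctn3, and overlaps it for Dctn6, Dynlt1b and Kif1a.

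The dynein light chains are small subunits at the tail of the motor. Of the 8 tested, 3 rose in Moderate IOP against Mild IOP, 7 had a log2 fold-change above 0, and the median was 0.58. Of all genes tested, 7.03% rose, 6315 of 13043 were above 0, and the median was −0.02. The summed level of the light chains was 1051, 1091 and 1113 FPKM in Control libraries, 826, 631 and 926 with Mild IOP and 1315, 1269 and 1390.1 with Moderate IOP, with no overlap between groups. Dynlrb1 supplied most of each sum. Dynll2, the close relative of Dynll1, had 0.22 (95% interval −0.17 to 0.61) in this comparison, and Dynlt3 had −0.08 (−0.45 to 0.29). Of the 6 dynactin subunits, 2 rose and the median was 0.17. Their summed level was 789, 813 and 746 FPKM in Control libraries, 736, 596 and 674 with Mild IOP and 910, 846 and 839 with Moderate IOP, in the same order and also without overlap. Dctn1, the large subunit that binds microtubules and dynein, was nearly level at 65.9 ± 9.42 FPKM in Control libraries, 64.8 ± 5.06 with Mild IOP and 62.8 ± 8.18 with Moderate IOP. Dctn2, which forms the shoulder of the complex, had 0.18 (−0.13 to 0.50).

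The core chains of dynein-1 carry the motor itself. The FDR limit was passed by 0.399% of all genes in Mild IOP against Control and by 1.84% in Moderate IOP against Control. In Moderate IOP against Mild IOP the share was 10.2%. None of the 5 dynein-1 chains passed in any comparison, which for 5 genes is near those shares. Their summed level was 184 ± 16.3 FPKM in Control libraries, 206 ± 22.3 with Mild IOP and 172 ± 6.26 with Moderate IOP. The intermediate chain Dync1i1, which joins dynein to dynactin, measured 86.2, 79.2 and 68.5 FPKM in Control libraries, 84.4, 124 and 91.7 with Mild IOP and 66.2, 82.0 and 75.5 with Moderate IOP. All Moderate IOP libraries lay below all Mild IOP libraries, by a log2 fold-change of −0.40 (95% interval −0.76 to −0.05, FDR 0.177). Without Mild IOP replicate 2, the highest library, this was −0.24 (FDR 0.5). Dync1li1, a light intermediate chain, had −0.37 (−0.74 to −0.01, FDR 0.222), and its relative Dync1li2 had −0.05 (−0.43 to 0.32). The heavy chain Dync1h1 had 0.32 (−0.09 to 0.72), also without overlap and also short of the limit. For dynein-2, the differences were 0.09 (−0.44 to 0.61) for Dync2li1 and −0.26 (−0.79 to 0.28) for Dync2h1.

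Kinesin-1 is the main motor of fast outward transport. None of its 7 chains was called in any comparison, which for 7 genes is near the shares of all genes. Those were 0.399% in Mild IOP against Control, 1.84% in Moderate IOP against Control and 10.2% in Moderate IOP against Mild IOP. The kinesin-1 chains summed to 688 ± 60.8 FPKM in Control libraries, 694 ± 21.8 with Mild IOP and 635 ± 25.7 with Moderate IOP. Klc1 measured 588, 525 and 467 FPKM in Control libraries, 543, 541 and 513 with Mild IOP and 487, 456 and 495 with Moderate IOP. Its log2 fold-change of Moderate IOP against Mild IOP was −0.15, with an interval of −0.39 to 0.09. This excludes a 1.5-fold change between these pools as measured, and not between animals. For the heavy chains the corresponding values were −0.18 (−0.48 to 0.12) for Kif5a, 0.01 (−0.34 to 0.36) for Kif5b and 0.04 (−0.24 to 0.32) for Kif5c. The locus of Klc1 overlaps that of Xrcc3 over 4652 nt, a gene that averaged 18.0 FPKM.

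Beyond Kif1a, the other kinesin-3 genes gave mixed values. Kif1b, which moves mitochondria and synaptic vesicle precursors, had a log2 fold-change of 0.25 (95% interval −0.30 to 0.81) in Moderate IOP against Mild IOP, and Kif13a had −0.26 (−0.77 to 0.25). Kif16b had −0.75 (−1.32 to −0.18) with an FDR of 0.119. It passed the limit with no scaling (FDR 0.0996), with a pseudocount of 0.1 (FDR 0.0928) and with no filter on low values (FDR 0.064). Its Moderate IOP values rest on few fragments in each of these fits, as given above. The kinesin-4 Kif21a, which restrains microtubule growth, measured 22.4, 29.2 and 27.6 FPKM in Control libraries, 24.7, 21.9 and 24.1 with Mild IOP and 30.3, 31.8 and 32.2 with Moderate IOP. Moderate IOP lay above the other 6 libraries, with a log2 fold-change of 0.40 (0.09 to 0.72, FDR 0.132) against Mild IOP. The second kinesin-4 tested, Kif21b, had −0.15 (−0.76 to 0.45). Among the kinesin-14 genes, Kifc2 had −0.39 (−0.75 to −0.04, FDR 0.186) and Kifc3 had −0.30 (−1.01 to 0.41). Kif22 had 0.67 (−0.30 to 1.64) with widely spread libraries.

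**Figure D4:**
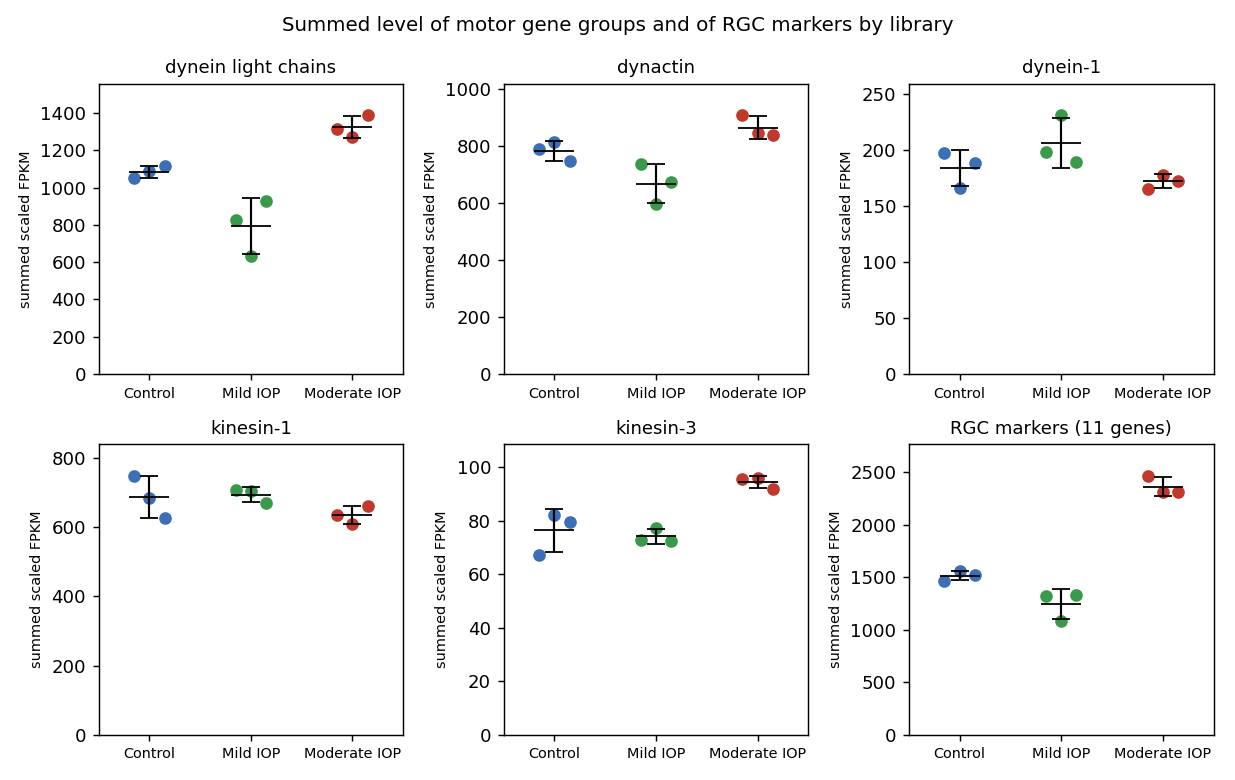
Points are summed scaled FPKM in each of the 3 libraries of a group, with the mean and SD as lines, for 5 motor families and for 11 RGC markers. The dynein light chains, the dynactin subunits and the RGC markers share the order Mild IOP, Control, Moderate IOP with no overlap, whereas kinesin-1 and dynein-1 were not highest in Moderate IOP. Most of the RGC marker sum is Sncg, with means of 911 FPKM in Control and 641 with Mild IOP, whereas Nefl averaged 343 and 374.

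Among 46 tested adaptors, cofactors and partner subunits of the motors, 1 rose and 1 fell in Moderate IOP against Mild IOP, the median log2 fold-change was −0.23, and 32 were below 0. Of all 13043 genes tested, 7.03% rose, 3.12% fell and 6713 were below 0. Capzb, which caps the barbed end of the dynactin filament, rose from 179 ± 18.5 to 236 ± 14.3 FPKM (log2 fold-change 0.41, SE 0.12, FDR 0.0797). The related genes Capza1 and Capza2 had −0.38 (FDR 0.311) and −0.02 (FDR 0.951). Actr1a, Actr1b and Actr10 had −0.05, −0.23 and −0.02, and none of them was called. Clstn1, calsyntenin-1, which docks vesicles onto kinesin-1 through its light chains, fell from 233 ± 34.7 to 138 ± 7.46 FPKM (−0.74, SE 0.13, FDR 0.0103). Against Control, at 240 ± 16.3 FPKM, Clstn1 was also lower in Moderate IOP (−0.79, SE 0.13, FDR 0.0207), and it was the only one of the 46 called there, where 0.951% of all genes were higher and 0.889% lower. In Mild IOP against Control none of the 46 was called in limma (against 0.399% of all genes), and Clstn1 had −0.05 (95% interval −0.32 to 0.23). Mapk8ip3, also known as JIP3, an adaptor for kinesin-1 and dynein, had −0.50 (−0.85 to −0.16, FDR 0.171) in Moderate IOP against Control. Kifap3, the accessory subunit of kinesin-2, had 0.08 (−0.21 to 0.37) there.

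In Moderate IOP against Mild IOP, 6 of 11 RGC markers rose and none fell, beside 7.03% and 3.12% of all genes, and Sncg, the most abundant, rose by a log2 fold-change of 1.13 (SE 0.14, FDR 0.00395). Nefl, the neurofilament light chain, rose by 0.52 (SE 0.09, FDR 0.0118). In the same comparison 4 of 8 tested amacrine markers fell. Of 6 tested bipolar cell markers, Pcp2 rose by 1.03 (FDR 0.0283), and the summed bipolar markers lay between 88.0 and 99.1 FPKM with Moderate IOP and between 53.1 and 75.5 FPKM in the other 6 libraries. Of 5 tested Müller glia markers, Glul rose by 0.96 (FDR 0.0124), whereas the most abundant, Dkk3, had −0.27 (FDR 0.17). The summed level of all 6 markers, most of it Dkk3, was 488 ± 12.5 FPKM with Moderate IOP and 549 ± 36.2 FPKM with Mild IOP. In Moderate IOP against Control, 1 of these 5 was called higher and 0 lower, beside 0.951% and 0.889% of all genes. The part of these markers in the differences between motor genes was not tested.

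Transcript length also moved with the result. The longest annotated transcripts of Dynlt1b, Dynlrb1, Dctn3 and Dctn6 have 771, 788, 973 and 1249 nt, whereas Dynll1 has 2030 nt and Kif1a 8206 nt. All 9 tested motor genes under 2000 nt had a log2 fold-change above 0 in Moderate IOP against Mild IOP, with a median of 0.39, and the 35 longer ones had a median of −0.03 with 17 above 0. Among all genes tested with a known length, the 3334 shorter ones had a median of 0.31 and the 9096 longer ones −0.10. Across these genes Spearman's rho between length and log2 fold-change was −0.37, and across the 44 motor genes it was −0.38, as a description, since genes of the same 6 libraries are not independent replicates. In Mild IOP against Control the medians had opposite signs, −0.27 for the 9 shorter motor genes and 0.02 for the longer ones. In Moderate IOP against Control they were 0.16 for the shorter ones, of which 8 were above 0, and 0.04 for the longer ones.

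When the trend with transcript length was removed from each library, Dynlrb1 had a log2 fold-change of 0.16 (FDR 0.381), Dctn3 0.11 (FDR 0.67), Dctn6 0.27 (FDR 0.306) and Dynlt1b 0.22 (FDR 0.626), and none of these 4 was called. Mild IOP replicate 2 was the lowest library for Dynlrb1, Dynll1, Dctn3, Dctn6 and Dynlt1b. Without it, Dynlrb1 had 0.64 (FDR 0.0138), Dynll1 0.71 (FDR 0.0254), Dctn3 0.57 (FDR 0.0576) and Dctn6 0.50 (FDR 0.0936), and all 4 stayed below the limit.

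**Figure D5:**
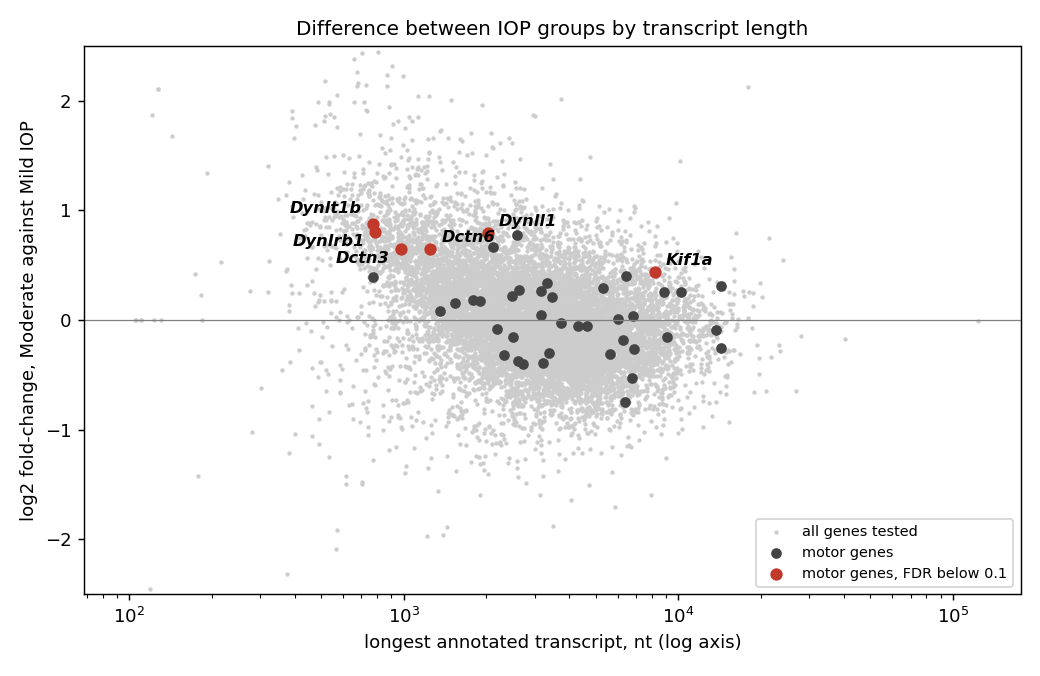
Each point is a gene, with its longest annotated transcript in nt on a log axis and its log2 fold-change in Moderate IOP against Mild IOP, for 12430 genes with a known length (grey, 21 of them beyond the vertical axis), the 44 tested motor genes (dark) and the 6 at an FDR below 0.1 (red). Dynlt1b, Dynlrb1, Dctn3 and Dctn6 lie among the short transcripts that were higher as a whole, and Dynll1 and Kif1a lie above the bulk of genes of their length.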

How the data were processed

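The authors trimmed and aligned the paired reads to mm10 and estimated FPKM per gene locus with Cufflinks, separately for each of the 9 libraries. The submitters' processing notes name FastQC, Trimmomatic, TopHat2, Cufflinks and Cuffdiff without versions. cDNA was primed with oligo-dT and amplified by PCR, and the use of strand in counting is not given in the sources used here. The deposited files also hold a confidence interval for each FPKM value and a status mark, and 2 symbols with a failed estimate were left out. Depth was derived from the intervals as (2 × FPKM / (upper bound − FPKM)) squared per gene, over genes of at least 2000 nt and 100 fragments, and is approximate.

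FPKM were summed per symbol, scaled by median-of-ratios factors and taken to log2 after adding 1, which understates the fold-changes of low genes. A limma model (version 3.58.1, R 4.3.3) with group means over all 9 libraries was fitted to the 13043 genes whose mean reached 0.5, and p-values were adjusted over all of them by the Benjamini-Hochberg method, with calls at an FDR below 0.1. Replicate numbers did not pair the libraries. Libraries with the same number had a mean correlation of 0.01 between their deviations from the group means, against −0.01 for different numbers. In simulated data for Moderate IOP against Control, the fit recovered 24% of 100 genes changed by a log2 fold-change of 0.6 and 57% of 100 changed by 1, with 1 false call. The changed genes were drawn from the more abundant ones, so the recovery does not cover low motor genes such as Kif16b and Kif17. Errors were drawn independently for each gene, with no trend with transcript length and no outlying library.

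Groups came from the sample labels. By rule, the text names all motor genes called, the 3 most abundant of each family, those with the largest differences and no overlap between groups, and those with separate, ordered ranges in the 3 groups. Other motor genes, such as Dctn1, Dctn5, Dynll2 and Kif5b, were named after their values were seen, as relatives of these or members of a count. The motor genes and all lists were chosen with earlier results of these data known. Transcript lengths are of the longest protein-coding transcript in GENCODE M21. Python 3.11.15, pandas 2.3.3, numpy 2.4.6 and matplotlib 3.10.9 served for tables and figures. Reads were not realigned. The values of some single marker genes are not reported here.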

Additional observations from a re-analysis of the deposited data

How the results depend on the processing

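With a filter at 5 FPKM, 1 motor gene (Dynll1, FDR 0.0753) was lower in Mild IOP than in Control (84 of 8180 genes). With no filter on low values, 1 (Kif16b) was lower in Moderate IOP than in Control (106 of 16977 genes). Against Mild IOP, 1 (Kif16b) was lower with no scaling (662 of 13066 genes), with a pseudocount of 0.1 (407 of 13043) and with no filter (346 of 16977), and 3 were higher with the length trend removed (342 of 13043). The median log2 fold-change of motor genes for Mild IOP against Control was 0.016 with no scaling and 0.02 with upper-quartile scaling. For Moderate against Mild IOP it was 0.036 with no scaling and 0.006 with no filter (64 genes). The medians of all genes were 0.049, 0.053, −0.087 and −0.008 in the same order. The cause was not tested.

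Leaving out each library in turn gave 4 to 7 higher and 0 lower motor genes in Moderate against Mild IOP, 0 to 2 lower in Mild IOP against Control, and 0 to 1 higher and 0 to 1 lower in Moderate IOP against Control. Of all genes, the same fits called 427 to 956 higher and 91 to 431 lower in Moderate against Mild IOP, 14 to 170 lower in Mild IOP against Control, and 32 to 158 higher and 29 to 113 lower in Moderate IOP against Control. The 2 lower genes, Dynll1 and Dynlrb1, appeared without Mild IOP replicate 3, where 170 of all genes were lower. Kif2a and Klc4 passed without Moderate IOP replicate 3, and Dynlt1c without Mild IOP replicate 2. The medians ranged from −0.068 to 0.028 for Mild IOP against Control, from 0.033 to 0.113 for Moderate IOP against Control and from 0.047 to 0.12 for Moderate against Mild IOP.

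With the replicate number as a block, the same 6 motor genes were higher in Moderate against Mild IOP and 0 were called otherwise, although the numbers did not pair the libraries (correlations of −0.005 to 0.044). Of all genes, the block called 1120 in that comparison, against 1324 without it, 25 against 52 in Mild IOP against Control and 135 against 240 in Moderate IOP against Control. With only the compared groups in the fit, these counts were 1033, 11 and 134. No direction reversed for the motor genes that the naming rule selected on differences, in the comparison that selected them. The motor gene median for Mild IOP against Control changed sign, as above, and with the changed scalings the median of all genes rose as well.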
